A study of Mus musculus with 12 samples.

Results

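Malat1 and Neat1 are neighbouring long non-coding RNA genes whose transcripts stay in the nucleus, and they were described here as 2 genes, chosen by symbol, of the 31053 in the count matrices of sorted mouse brain myeloid cells. The series held 12 libraries, each from the whole brain of 1 male C57BL/6J mouse at postnatal day 90, with 3 mice in each of 4 groups: cold Dounce homogenization without inhibitors (DNC-NONE) or with them (DNC-INHIB), and warm enzymatic digestion without inhibitors (ENZ-NONE) or with them (ENZ-INHIB). The inhibitors were the transcription blockers actinomycin D and triptolide and the translation blocker anisomycin. Live CD45+/CD11b+ cells were sorted from all groups and captured with the 10x Genomics single-cell kit that reads transcript 3′ ends, so one captured molecule gave 1 unique molecular identifier (UMI).

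The matrices held 28426 cell barcodes and 33742845 UMIs. Cells were kept with at least 1000 UMIs, at least 500 genes and at most 10% mitochondrial UMIs, which 18830 barcodes (66.2%) passed with 26851505 UMIs, from 855 to 2185 cells per library. The median of UMIs per kept cell ran from 1153 to 1572 over libraries and was higher in the 6 digested libraries (mean 1416) than in the 6 Dounce libraries (mean 1267; exact permutation test, two-sided, p = 0.0368). Of 27914 distinct barcode sequences, 503 occurred in 2 or more libraries. The microglial label held: 9 microglial marker genes, Tmem119 and P2ry12 among them, took 3.32 to 3.90% of the UMIs of every library. Markers of other cells were scarce, but neutrophil (0 to 0.393%), monocyte (0.00277 to 0.0316%) and border macrophage (0.0238 to 0.0585%) markers were each highest in a DNC-NONE library, and neutrophil markers took at most 0.00110% in ENZ-NONE. ENZ-NONE replicate 6 stood apart, with 70.1% of its cells in 3 clusters led by heat shock, Fos and Socs3 genes, and results that rest on it are given with and without it.

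Malat1 is concentrated in nuclear speckles, the bodies that store splicing factors, and is among the most abundant transcripts of most mammalian cells. Neat1 is the scaffold of paraspeckles, bodies that hold RNA-binding proteins such as Sfpq and Nono. It has a short polyadenylated form and a long form, and the long form builds the body. Because both RNAs stay in the nucleus when cytoplasm is lost, and mitochondrial transcripts lie outside it, their share of a cell's UMIs is often read beside the mitochondrial share when cells are judged for damage.

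The genes lie 22035 bases apart on the minus strand of mouse chromosome 19 (GRCm38), each annotated as a long intergenic non-coding RNA with 4 transcripts. Malat1 (ENSMUSG00000092341) spans 6983 bases at chr19:5795690-5802672 and Neat1 (ENSMUSG00000092274) 20771 bases at chr19:5824708-5845478. The longest transcript of each is a single exon over the whole gene. Their ends are shown because a 3′ kit primed on runs of A samples a transcript through such letters, and neither Malat1 nor the long form of Neat1 is known to carry a poly(A) tail: RNase P cuts them ahead of a tRNA-like RNA, in Malat1 the mascRNA, and a triple helix closes the end. The sequences are the minus strand of GRCm38, with runs of 5 or more A in capitals, or the polyadenylation signal AATAAA in the last. They come, in order, from chr19:5795982-5796081, chr19:5795924-5795981, chr19:5824708-5824807 and chr19:5842307-5842406.
Malat1 last bases before the mascRNA: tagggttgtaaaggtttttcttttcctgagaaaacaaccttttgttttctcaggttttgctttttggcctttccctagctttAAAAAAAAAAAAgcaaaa
mascRNA: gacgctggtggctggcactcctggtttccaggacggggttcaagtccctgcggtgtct
Neat1 long transcript end: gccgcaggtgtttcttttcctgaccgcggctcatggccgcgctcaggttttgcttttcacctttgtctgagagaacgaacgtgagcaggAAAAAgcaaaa
Neat1 short transcript end: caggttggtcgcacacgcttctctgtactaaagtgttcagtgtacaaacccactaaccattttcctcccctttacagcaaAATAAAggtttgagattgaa

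Both long ends closed with the same 11 bases (aaaaagcaaaa) and shared the stretches tttcttttcctga and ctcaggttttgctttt, of 13 and 16 bases. Malat1 carried a run of 12 A before its mature end, which 0.900% of the last 100 bases of 139316 annotated transcripts held, whereas the long Neat1 end had only a run of 5 A, found in 22.1% of them. The short Neat1 end held AATAAA, found in 28.9%. Motifs were searched on the transcribed strand alone, and a match describes the letters only. The counts do not tell the short and long forms of Neat1 apart.

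Malat1 was the most abundant transcript of the series and made up about the same share of UMIs in all 4 preparations. It gave 1541342 UMIs in the kept cells, 5.74% of the total, just above the 5.62% of Cst3, which encodes the protease inhibitor cystatin C, and ranked first or second in every library. In DNC-NONE its share was 6.45, 5.63 and 5.16% of UMIs in replicates 1, 2 and 3. In DNC-INHIB it was 5.85, 5.87 and 5.98% in replicates 4, 5 and 6. In ENZ-NONE it was 5.82, 6.08 and 5.42% in replicates 4, 5 and 6, and in ENZ-INHIB 6.11, 5.43 and 5.10% in replicates 1, 2 and 3. The groups overlapped throughout, with both the highest share and the second lowest found in DNC-NONE.

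Without inhibitors Malat1 averaged 5.75% ± 0.654 (SD, n = 3) after Dounce and 5.77% ± 0.330 after digestion. With them it averaged 5.90% ± 0.0716 and 5.55% ± 0.517. The pseudobulk test (edgeR quasi-likelihood on counts summed per library, Benjamini-Hochberg over the 9884 genes tested) gave Malat1 log2 fold changes of -0.13 to 0.09 over 9 contrasts, with adjusted p from 0.827 to 1.00. For digestion against Dounce, averaged over inhibitors, the log2 fold change was -0.02 (adjusted p = 0.942, edgeR), in a contrast where 155 genes (1.57%) were called at adjusted p under 0.05. For inhibitors against none it was -0.03 (adjusted p = 0.974, edgeR), with 22 genes (0.223%) called. The SE of Malat1 in ENZ-NONE against DNC-NONE was 0.0767 on the log2 scale.

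**Figure D1:**
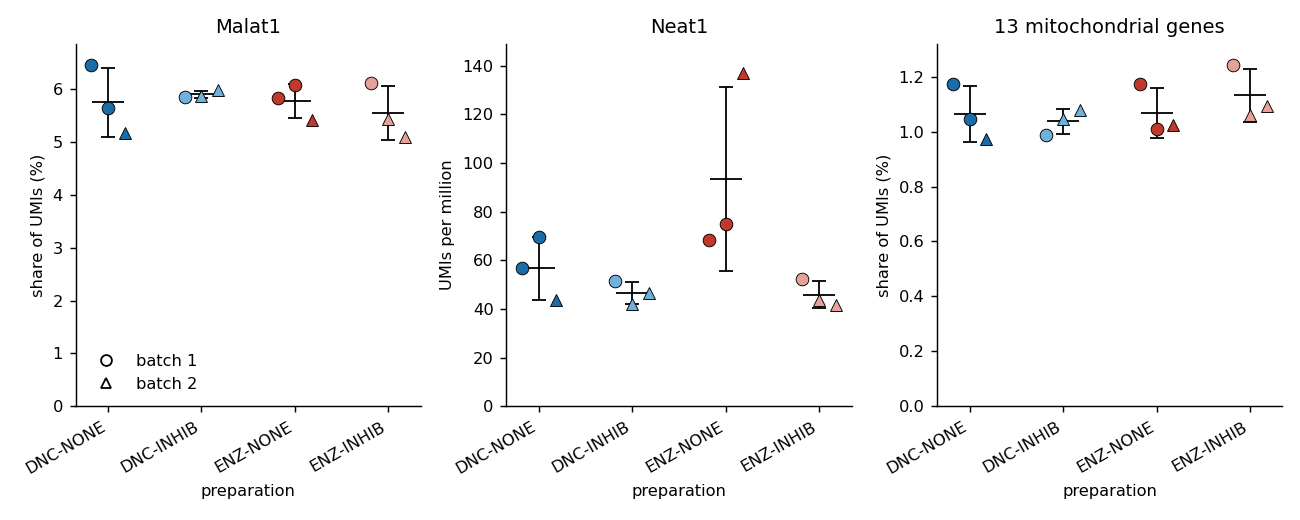
Each point is 1 library of kept cells: the Malat1 share of UMIs in percent (left), Neat1 in counts per 1000000 UMIs, CPM (middle) and the share of UMIs from 13 mitochondrial genes in percent (right), by preparation, with circles for batch 1, triangles for batch 2, and bars for the mean and SD of 3. Malat1 and the mitochondrial share overlap between all groups, while 3 ENZ-NONE libraries hold Neat1 at 68.4 to 137 CPM, above every library treated with inhibitors.

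Neat1 was far rarer and did differ between preparations: its level was highest after digestion without inhibitors. It gave 1622 UMIs (60.4 CPM, counts scaled to a library total of 1000000, rank 2768 of all genes) and was seen in 1347 kept cells (7.15%), of which 187 held more than 1. In ENZ-NONE it stood at 68.4, 74.8 and 137 CPM in replicates 4, 5 and 6. In DNC-NONE it stood at 56.8, 69.6 and 43.8 in replicates 1, 2 and 3. In DNC-INHIB it stood at 51.3, 42.2 and 46.4 in replicates 4, 5 and 6, and in ENZ-INHIB at 52.3, 43.7 and 41.7 in replicates 1, 2 and 3. Every ENZ-NONE library lay above every inhibited library, and the lowest ENZ-NONE library lay just under the highest DNC-NONE library.

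Neat1 averaged 93.4 ± 37.9 CPM (SD, n = 3) in ENZ-NONE and 56.8 ± 12.9 in DNC-NONE. With inhibitors it averaged 46.6 ± 4.57 CPM after Dounce and 45.9 ± 5.60 after digestion. Neat1 rose in ENZ-NONE against DNC-INHIB, by 1.09 on the log2 scale (SE 0.22, edgeR, adjusted p = 0.0140), among 86 genes (0.87%) called in that contrast. It rose against ENZ-INHIB by 1.11 (SE 0.22, adjusted p = 0.0241, edgeR), among 42 genes (0.425%), all of them higher in ENZ-NONE. Against DNC-NONE the log2 fold change of 0.83 (SE 0.22) did not pass (adjusted p = 0.146, edgeR), where 64 genes (0.648%) did. The other 3 pairs gave log2 fold changes of -0.28 to 0.26 for Neat1, and 15 genes (0.152%) were called in ENZ-INHIB against DNC-INHIB, 10 (0.101%) in ENZ-INHIB against DNC-NONE and 0 (0%) by edgeR between the Dounce groups (468 at an unadjusted p under 0.05, and 1 called by DESeq2).

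These calls depended on how the spread was estimated and on single libraries. With edgeR's robust estimation the adjusted p against DNC-INHIB and ENZ-INHIB was 0.161 and 0.406, whereas DESeq2 gave 0.000498 and 0.000605. Without ENZ-NONE replicate 6 the log2 fold changes were 0.64 and 0.66, against 1.09 and 1.11 with it, and the contrast with ENZ-INHIB no longer passed (adjusted p = 0.0655, edgeR). That contrast also failed without ENZ-INHIB replicate 1, 2 or 3 (adjusted p = 0.0646, 0.198 and 0.198, edgeR), and the contrast with DNC-INHIB failed without DNC-INHIB replicate 5 or 6 (0.108 and 0.0813, edgeR). With batch as a covariate both held, at 0.00908 and 0.0138 (edgeR). The contrast with DNC-NONE passed instead without ENZ-NONE replicate 4 (log2 fold change 1.04, adjusted p = 0.0259, edgeR) and within microglia-like cells (1.00, adjusted p = 0.0213, edgeR), while it dropped to 0.39 without ENZ-NONE replicate 6.

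Averaged over digestion, inhibitors gave Neat1 -0.68 on the log2 scale (SE 0.16, edgeR, adjusted p = 0.151), and the interaction of digestion and inhibitors with -0.85 (adjusted p = 1.00, edgeR; 17 genes, 0.172%, were called). DESeq2 gave an adjusted p of 0.0126 for inhibitors, and edgeR 0.0220 without ENZ-NONE replicate 4. That was the only 1 of 12 repeats with a library left out to pass. Those repeats gave inhibitors -0.78 to -0.46, with adjusted p up to 0.494 (edgeR). Over the other settings the adjusted p reached 0.615 (edgeR). The levels themselves averaged 46.3 CPM in the 6 libraries with inhibitors and 75.1 in the 6 without (exact permutation test, two-sided, p = 0.0108, not adjusted and chosen after the values were seen). This permutation ignored batch and was not repeated without ENZ-NONE replicate 6. Groups without inhibitors each had 2 libraries in batch 1 and 1 in batch 2, and groups with them 1 and 2. With batch as a covariate inhibitors gave -0.73 (adjusted p = 0.0824, edgeR). An exact test of 3 libraries against 3 cannot go below 0.1.

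The share of cells with a Neat1 UMI was likewise highest in ENZ-NONE. It was 7.26, 8.58 and 14.7% in ENZ-NONE replicates 4, 5 and 6 (exact 95% binomial interval of the last 13.1 to 16.5%), and 5.01 to 7.13% in the other 9 libraries. Since deeper cells hold more UMIs, each cell was also thinned to 1000 UMIs, which all 18830 kept cells reached. The share was then 5.46, 6.63 and 10.4% in ENZ-NONE against 3.91 to 5.79% elsewhere, and within microglia-like cells 4.88, 6.26 and 9.41% against 3.47 to 4.54%. Between inhibitors and none the thinned share differed by -1.86 percentage points (exact permutation test, p = 0.0195), with an adjusted p of 0.2 over 16 comparisons. No cell class that lacks Neat1 was at hand to set the level of free RNA, and the lowest well-filled class, the interferon-responsive-like cells, held 23.9 CPM.

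A missing Malat1 UMI was rare. Among the kept cells 3 held none, 1 in each ENZ-INHIB library. The other 9 libraries had 0 such cells, which allows shares of up to 0.137 to 0.351% per library by the count of cells (3 counts of each total). Over all deposited barcodes 46 held none, of which 28 had under 500 UMIs, with a median of 423.5 UMIs. In their summed UMIs Apoe, the gene of apolipoprotein E, made up 3.84% against 0.208% over all barcodes. Their median mitochondrial share was 2.35%, with 3 over 10%. Of the 46, 16 came from DNC-NONE replicate 2, among them those at 35.5 and 55.3% mitochondrial UMIs, and each other library held 0 to 6. These intervals and limits cover counting error only.

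The share of UMIs given to Malat1 was higher in shallower barcodes. Averaged over the 12 libraries it was 10.5% ± 2.30 (SD) in barcodes under 500 UMIs, 8.85% ± 0.719 from 500 to below 750, 7.59% ± 0.524 from 750 to below 1000, 6.22% ± 0.396 from 1000 to below 1500, 5.19% ± 0.378 from 1500 to below 2000 and 4.62% ± 0.415 at 2000 or more. The rise did not reach the first bin everywhere: under 500 UMIs DNC-NONE replicates 1 and 3 and DNC-INHIB replicate 5 held 9.35, 7.33 and 7.28%, below their 9.81, 7.61 and 8.06% from 500 to below 750. The number of Malat1 UMIs still grew with depth, from 37.0 to 113 per barcode over the same bins. In barcodes of at least 500 UMIs the log2 of Malat1 UMIs climbed by 0.305 to 0.589 per doubling of total UMIs in each library, where a constant share would give 1. Malat1 UMIs are part of the total, so the 2 quantities are not independent.

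Barcodes of 500 to below 1000 UMIs held Malat1 at 7.90% and those of 2000 or more at 4.62%, a within-library difference of 3.28 ± 0.658 percentage points (SD, n = 12). The difference was positive in 12 of 12 libraries, from 2.58 to 4.13 points (exact sign-flip permutation test, two-sided, p = 0.000488, the smallest that 12 libraries can give, adjusted p = 0.00122 over 5 within-library relations). The group means of this difference, 3.17 to 3.53 points, lay within 1 SD of each other. Within barcodes of at most 5% mitochondrial UMIs it was 3.28.

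Neat1 took no such steady course with depth. Its mean over libraries was 149 CPM under 500 UMIs and 98.2 from 750 to below 1000, then 59.1 from 1000 to below 1500, and 85.3 at 2000 or more. Between 500 to below 1000 and 2000 or more it differed by 18.3 ± 42.7 CPM, higher in 9 of 12 libraries (exact sign-flip permutation test, p = 0.164). Set against barcodes of 1000 to below 1500 instead, the difference was 44.6 CPM, in 11 of 12 libraries (adjusted p = 0.00122, exact sign-flip permutation test). Pooled over kept microglia-like cells alone, Neat1 was 51.2 CPM at 1000 to below 2000 UMIs and 58.4 at 2000 or more. The part of cell makeup in the depth values was not tested.

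The shallowest barcodes separated the preparations, which the kept cells did not. Under 500 UMIs the Malat1 share was 9.35, 8.90 and 7.33% in DNC-NONE replicates 1 to 3 and 8.65, 7.28 and 9.27% in DNC-INHIB replicates 4 to 6. It was 13.9, 12.7 and 11.4% in ENZ-NONE replicates 4 to 6 and 12.5, 11.8 and 12.9% in ENZ-INHIB replicates 1 to 3. All 6 digested libraries lay above all 6 Dounce libraries, whether or not inhibitors were used.

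The means were 12.5% ± 0.898 in digested and 8.46% ± 0.932 in Dounce libraries (SD, n = 6), a difference of 4.08 percentage points (exact permutation test, two-sided, p = 0.00216, the smallest that 6 against 6 can give). Adjusted over 7 depth bins (1000 to 1500 UMIs counted as 2) and 2 factors, the exact permutation p was 0.0303, and 0.0700 when libraries were permuted within their batch (raw p = 0.005, the smallest possible there). The difference was 4.09 points in batch 1 and 4.07 in batch 2. This comparison was made after the values were seen. Inhibitors against none differed by -0.184 points (p = 0.879, exact permutation test).

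The digested libraries also had more and slightly shallower barcodes in this range. Barcodes under 500 UMIs were 6.51 to 14.7% of a digested library and 3.64 to 9.07% of a Dounce library, with median UMIs of 297.5 to 351 and 351.5 to 378. At 400 to below 500 UMIs, where median UMIs overlapped (438 to 455 against 443 to 453.5), the Malat1 share was 10.7 to 12.2% in digested and 6.10 to 9.22% in Dounce libraries. Among barcodes of at most 5% mitochondrial UMIs the difference was 3.74 points. Each barcode under 500 UMIs held 43.2 Malat1 UMIs in digested and 30.9 in Dounce libraries on average, so the count as well as the share was higher.

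Microglial messenger RNAs, looked at after the Malat1 values were seen, went the other way in these barcodes. Cst3 took 3.17 to 4.16% of their UMIs in digested and 4.66 to 6.58% in Dounce libraries. The 9 microglial markers together took 3.10 to 4.33% and 4.22 to 5.28%. The mitochondrial share was 2.35 to 4.31% and 1.88 to 3.40%, and the groups overlapped (p = 0.162, exact permutation test). Border macrophage markers took 0.0471 to 0.104% and 0.0365 to 0.0714%, and neutrophil markers 0 to 0.535% and 0 to 0.308%. The part of cell makeup in the Malat1 difference was not tested, and in summed counts another mix of cells cannot be told apart from another amount of RNA per cell.

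At 500 to below 750 UMIs the means were 9.27% in digested and 8.42% in Dounce libraries (p = 0.0368, exact permutation test; adjusted p = 0.258), and the groups overlapped. From 750 UMIs up the difference lay between -0.0360 and 0.199 points in every bin (smallest p = 0.450, exact permutation test). At matched depth among kept cells, 1000 to below 1500 UMIs, the Malat1 share was 6.26% in digested and 6.19% in Dounce libraries.

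**Figure D2:**
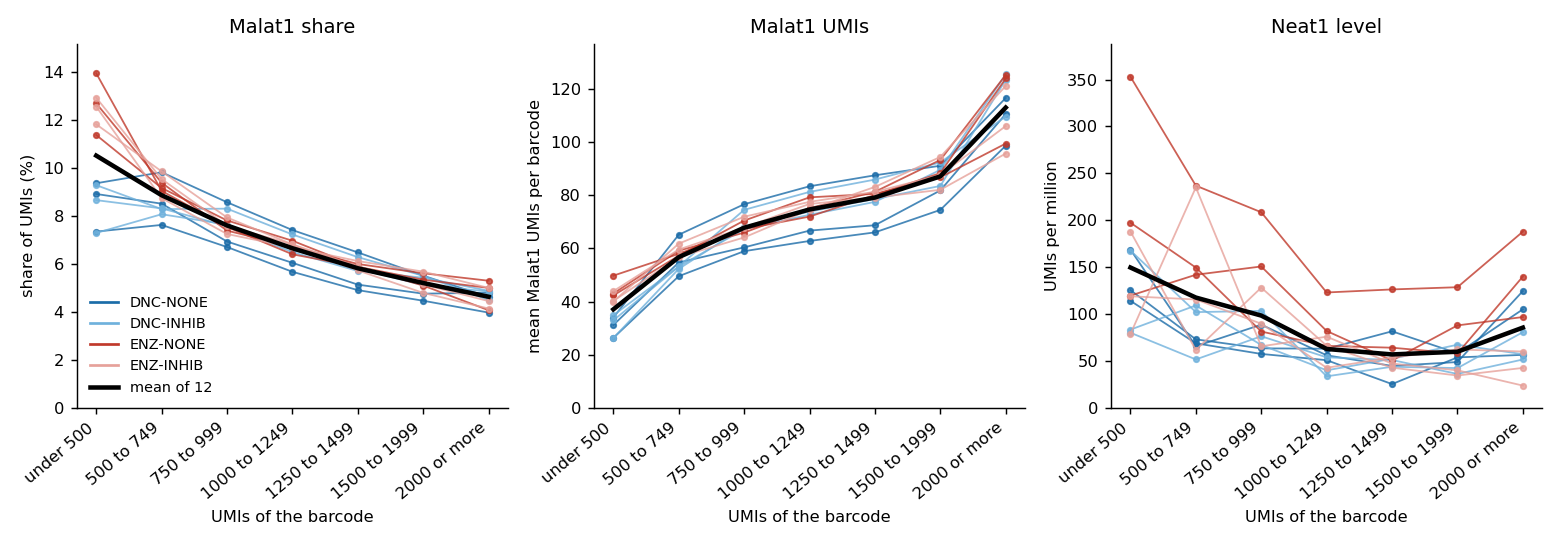
Each line is 1 library over bins of UMIs per barcode, with the mean of 12 in black: the Malat1 share of UMIs in percent (left), mean Malat1 UMIs per barcode (middle) and Neat1 CPM (right). The Malat1 share goes from a mean of 10.5% to 4.62% along the axis, and the red digested libraries (11.4 to 13.9%) stand above the blue Dounce libraries (7.28 to 9.35%) only in the first bin.

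The share of UMIs from the 13 mitochondrial genes passed the test in no contrast between preparations, at 0.973 to 1.17% after Dounce and 1.01 to 1.17% after digestion without inhibitors, and 0.987 to 1.08% and 1.06 to 1.24% with them (8 contrasts by exact permutation, every adjusted p = 0.9). Within libraries, however, Malat1 was lower where the mitochondrial share was higher. Kept cells of each library were split in 3 equal parts by their mitochondrial share: the highest part held Malat1 at 5.37% and the lowest at 6.12%. The difference of -0.745 ± 0.223 percentage points (SD, n = 12) had the same sign in 12 of 12 libraries, from -1.11 to -0.307 (exact sign-flip permutation test, p = 0.000488, adjusted p = 0.00122).

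The relation stayed when depth or denominator was changed. In cells of 1000 to below 1500 UMIs the difference was -0.574 points, over non-mitochondrial UMIs -0.687, and in microglia-like cells -0.583, with 12 of 12 libraries lower each time. Over all deposited barcodes it was -0.600, and 1 of 12 libraries was higher. Among kept cells the Malat1 share averaged 6.36% in those under 0.5% mitochondrial UMIs and 4.99% in those of 2 to 3%.

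Deposited barcodes of very high mitochondrial share broke this order. From 7.01% in barcodes under 0.5% mitochondrial UMIs the pooled Malat1 share went to 5.78% at 1.5 to 2%, but it was 7.56% at 3 to 5% and 10.8% at 5 to 10%. The barcodes of these last bins were shallow, with median UMIs of 460 and 334. Among barcodes of at least 500 UMIs the share was 5.73% at 1.5 to 2% mitochondrial UMIs, 5.67% at 3 to 5% (309 barcodes) and 7.30% at 5 to 10% (52 barcodes), and among kept cells it was 3.44% at 3 to 5% (99 cells). These are pooled shares, and the mean over libraries at 3 to 5% in barcodes of at least 500 UMIs was 6.16% ± 1.61 (SD, n = 12), against 5.72% ± 0.590 at 1.5 to 2%.

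Neat1 went the other way with the mitochondrial share, at 71.1 CPM in the highest part and 50.3 in the lowest. The difference of 20.8 ± 13.2 (SD, n = 12) was positive in 11 of 12 libraries (exact sign-flip permutation test, p = 0.000977, adjusted p = 0.00163). The call was lost at matched depth: in cells of 1000 to below 1500 UMIs the difference was 8.43 CPM, positive in 10 of 12 libraries (adjusted p = 0.0814, exact sign-flip permutation test). In microglia-like cells alone it was 2.40, positive in 7 of 12 libraries (p = 0.445, exact sign-flip permutation test). Border macrophage-like and monocyte-like cells, where both Neat1 and the mitochondrial share were higher, are in the first value and not in the second.

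Between the members themselves, cells in the highest of 3 parts by Malat1 share held Neat1 at 69.4 CPM and those in the lowest at 62.2, a difference of 7.19 ± 17.5, positive in 8 of 12 libraries (p = 0.185, exact sign-flip permutation test). Without DNC-INHIB replicate 5 it was 10.4 and passed (adjusted p = 0.0415, exact sign-flip permutation test). In microglia-like cells alone Neat1 was 62.8 and 46.5, a difference of 16.2 ± 16.6, positive in 10 of 12 (adjusted p = 0.0128, exact sign-flip permutation test). At matched depth, in kept cells of 1000 to below 1500 UMIs, the difference was 10.3 ± 19.4, positive in 8 of 12. It did not pass there (adjusted p = 0.117, exact sign-flip permutation test).

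**Figure D3:**
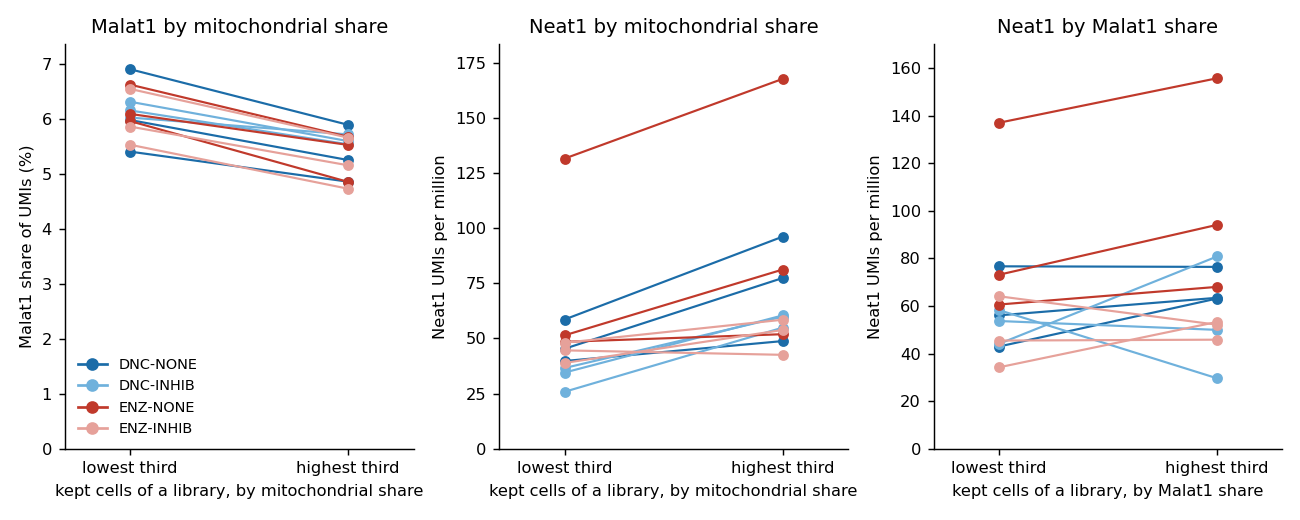
Each line is 1 library, with kept cells split in 3 equal parts: Malat1 (share of UMIs in percent, left) and Neat1 (CPM, middle) by mitochondrial share, and Neat1 by Malat1 share (right). Malat1 is lower in the part of high mitochondrial share in 12 of 12 libraries, Neat1 is higher there in 11 of 12, and Neat1 by Malat1 share goes both ways (higher in 8 of 12).

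Border macrophage-like and monocyte-like cells carried less Malat1 and more Neat1 than microglia-like cells. Classes were named from fixed marker genes after clustering with both members left out, and their levels are given as a description, without a test. Microglia-like cells (17950) held Malat1 at 5.82% and Neat1 at 51.9 CPM. Border macrophage-like cells (315, with Pf4 and Mrc1) held Malat1 at 4.998% and Neat1 at 307 CPM, on 163 UMIs. Monocyte-like cells (123, with Chil3, Plac8 and Ly6c2) held Malat1 at 1.92% and Neat1 at 354 CPM, on 86 UMIs. S100a8 led this monocyte-like cluster. Neutrophil markers had a median fold of 1122 over other cells there, against 144 for monocyte markers. Only 1 of 5 neutrophil markers was seen in at least 10% of its cells, against 7 of 7 monocyte markers.

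In the 9 libraries with at least 20 border macrophage-like cells, Neat1 was above its microglia-like level in 9 of 9 (mean 325 ± 213 CPM, 98.4 to 827) and Malat1 below in 8 of 9 (mean 4.97% ± 0.587). Only 1 library had 20 monocyte-like cells, so their place in the order rests on pooled cells. These 3 classes kept their order at matched depth: among cells of 1000 to below 2000 UMIs Malat1 was 5.93, 5.47 and 2.18% and Neat1 51.2, 368 and 410 CPM in microglia-like, border macrophage-like and monocyte-like cells. Interferon-responsive-like cells (341) lay at 5.77% for Malat1, above microglia-like cells in 6 of 10 libraries, and at 23.9 CPM for Neat1, on 12 UMIs. A cluster of 70 cells led by Cd209a and Gzma, left unnamed, held 2.84% and 248 CPM. Its low Malat1 was not seen at matched depth: its 22 cells of 1000 to below 2000 UMIs held 6.39%, above microglia-like cells, and its 48 deeper cells 1.97%. The 31 proliferating-like cells held 3.30% and 42.4 CPM, on 3 UMIs. Pooled interferon-responsive-like and proliferating-like cells lay below microglia-like cells in both genes. At 1000 to below 2000 UMIs, however, interferon-responsive-like cells held more Malat1 (6.03 against 5.93%) and less Neat1 (29.2 against 51.2 CPM). Proliferating-like cells were deeper (median 2247 UMIs) and too few for their Neat1 level to be placed. These values do not settle whether all classes shared the opposite order.

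**Figure D4:**
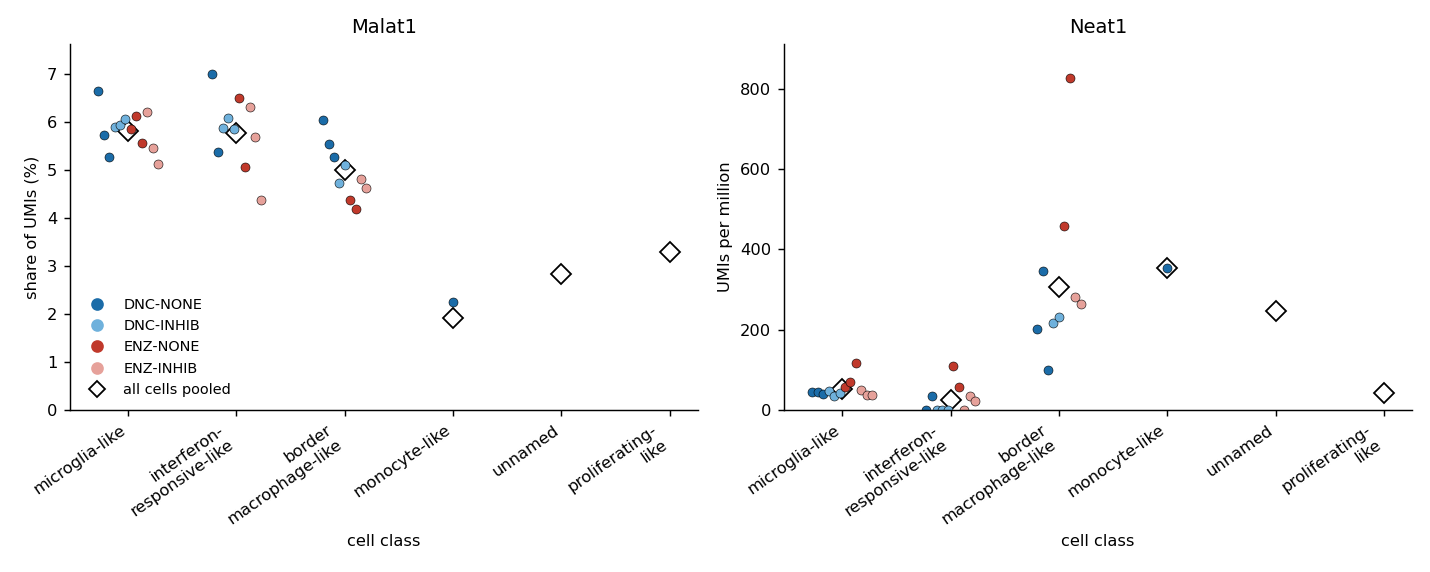
Points are libraries with at least 20 cells of a class, coloured by preparation, and diamonds pool all kept cells of the class: Malat1 share of UMIs in percent (left) and Neat1 CPM (right). Pooled monocyte-like cells hold the lowest Malat1 (1.92%) and the highest Neat1 (354 CPM), and interferon-responsive-like cells the lowest Neat1 (23.9 CPM) beside a Malat1 share of 5.77%.

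Microglia-like clusters differed too. The 434 cells led by Lpl and Cst7, genes known from disease-associated microglia, held Malat1 at 4.87% against 5.86% in the largest cluster, lower in 12 of 12 libraries. They held Neat1 at 112 against 33.2 CPM, higher in 12 of 12, but on 85 UMIs, from 3 to 15 per library. They were also deeper, with a median of 1622.5 against 1303.5 UMIs, and the part of depth in these differences was not tested. The 717 cells led by the immediate early genes Fos, Egr1 and Dusp1 held Neat1 at 207 CPM and Malat1 at 5.68%. Of those 717 cells 537 came from ENZ-NONE replicate 6.

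Such cells held a varying part of the Neat1 of ENZ-NONE. The 3 clusters led by heat shock genes (Hspa1a), by Fos and by Socs3 held 35.2, 30.2 and 70.1% of the cells of ENZ-NONE replicates 4, 5 and 6 and 35.6, 43.5 and 71.4% of their Neat1 UMIs, so in replicates 4 and 6 their part of Neat1 was close to their part of cells. Neat1 stood at 68.7, 108 and 140 CPM in these clusters. They held 15.4% of the cells of DNC-NONE replicate 1 and at most 3.09% in any other library. Border macrophage-like and monocyte-like cells were 1.66, 1.43 and 2.86% of the cells of ENZ-NONE replicates 4, 5 and 6. They held 14.8, 6.09 and 17.6% of the Neat1 UMIs. The other microglia-like clusters were 62.2, 66.1 and 24.8% of the cells and held 46.3, 46.1 and 8.02% of the Neat1 UMIs. In replicate 6 the Fos cluster alone was 30.7% of the cells and held 49.7% of the Neat1 UMIs. In the remaining microglia-like clusters Neat1 was 51.4, 52.5 and 46.4 CPM in ENZ-NONE and 35.4 to 49.1 in the other 9 libraries, so the lowest ENZ-NONE value came below the highest of the rest. With the 3 clusters left out of the pseudobulk sums, a choice made after the data were seen, the log2 fold changes against DNC-INHIB and ENZ-INHIB were 0.88 and 0.90 (adjusted p = 0.149 and 0.300, edgeR). These sums kept the border macrophage-like and monocyte-like cells. In ENZ-NONE replicates 4, 5 and 6 those cells held 22, 7 and 66 Neat1 UMIs. The remaining microglia-like clusters held 69, 53 and 30. The 2 fold changes thus do not describe microglia-like cells alone.

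Cells were then grouped by how many of 12 immediate early and early response genes (Fos, Jun, Egr1, Dusp1, Ccl3 and others) they held, at 1000 to below 2000 UMIs. These genes are switched on within minutes of a stimulus and took 0.594, 0.543 and 1.26% of UMIs in ENZ-NONE replicates 4, 5 and 6 and 0.0585 to 0.186% in the other libraries. In ENZ-NONE cells with none of them Neat1 was 24.6, 36.5 and 39.9 CPM in replicates 4, 5 and 6, on 7, 8 and 4 UMIs. With 1 or 2 of them it was 57.4, 58.6 and 53.0, and with 3 or more 80.9, 104 and 162. All 3 libraries ran upward, and in pooled cells with 5 or more Neat1 reached 193 CPM. Cells of all classes were counted. Median UMIs rose as well, from 1240, 1203 and 1312 with none to 1336, 1334 and 1457.5 with 3 or more, and the part of class and depth was not tested.

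The other preparations had few cells with 3 or more such genes. Pooled, they held Neat1 at 70.8 CPM in 231 DNC-NONE cells, 83.4 in 96 DNC-INHIB cells and 120 in 66 ENZ-INHIB cells (12 UMIs), against 46.1, 41.5 and 44.9 in cells with none. Single libraries carried these values. All 22 Neat1 UMIs of the DNC-NONE cells came from replicate 1 (84.2 CPM against 42.0 with none), and replicate 3 had 0 in 27 cells against 48.8 CPM with none. In DNC-INHIB 7 of 11 UMIs came from replicate 4 (175 against 42.9 CPM), while replicates 5 and 6 had 41.7 and 45.5 CPM against 35.3 and 46.1. In ENZ-INHIB 7 of 12 came from replicate 1.

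Malat1 changed little with the count in ENZ-NONE, at 5.85, 5.88 and 5.89% with none, with 1 or 2, and with 3 or more. In pooled DNC-NONE cells it was 5.71, 6.10 and 6.39%, but 194 of the 231 cells with 3 or more were from replicate 1, where it was 6.47, 6.69 and 6.60%, and in replicate 3 it was 5.26, 5.27 and 5.27%. In DNC-INHIB it was 6.10, 5.99 and 6.07%, and in ENZ-INHIB 5.69, 5.71 and 5.18%. The list overlaps the genes that lead the heat shock and Fos clusters, and these values are a description without a test.

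**Figure D5:**
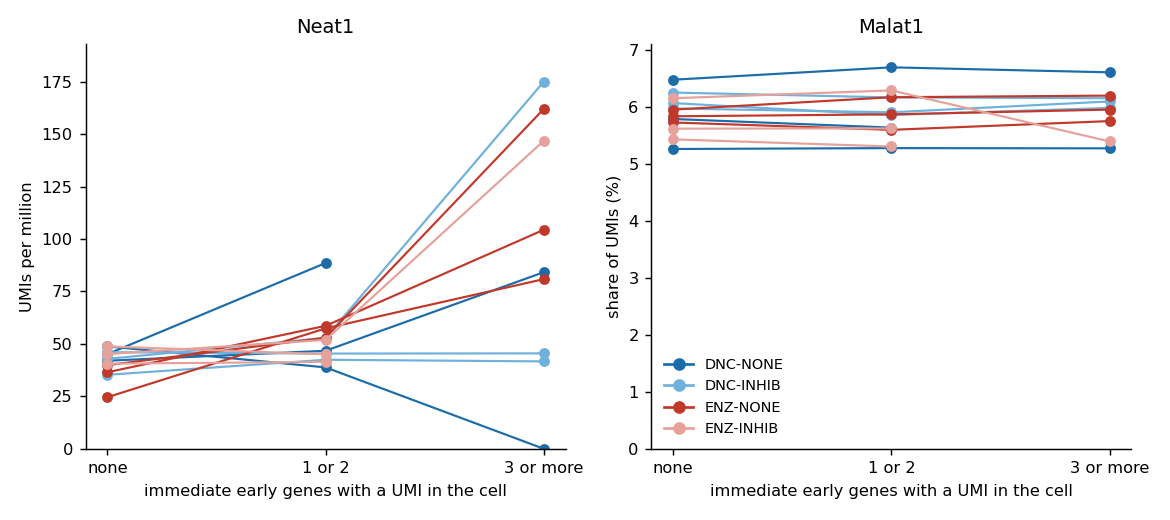
Each line is 1 library, for cells of 1000 to below 2000 UMIs grouped by how many of 12 immediate early genes have a UMI, with points only where at least 20 cells fell: Neat1 CPM (left) and Malat1 share of UMIs in percent (right). In the 3 ENZ-NONE libraries Neat1 goes from 24.6 to 39.9 CPM (on 4 to 8 UMIs) up to 80.9 to 162, while Malat1 stays near its starting level.

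Protein genes of the bodies that hold these RNAs showed no called change. None of 13 paraspeckle protein genes and none of 15 speckle and splicing protein genes was called in any of 9 contrasts, by edgeR or by DESeq2. At an unadjusted p under 0.05, edgeR had at most 4 of the 13 and 3 of the 15, both counts in digestion against Dounce, where 1274 of all 9884 genes (12.9%) had such a p. ENZ-NONE against DNC-NONE also had 3 of the 15, where 851 of all 9884 genes had such a p. In digestion against Dounce the median log2 fold changes were 0.11 and 0.03 beside 0.0048 over all genes tested. Sfpq, a core paraspeckle protein, had 0.25 there (adjusted p = 0.0613, edgeR), and Srsf2, a splicing factor of speckles, -0.23 (adjusted p = 0.127, edgeR). Abundant members included Hnrnpk (808 CPM) of the paraspeckle genes and Son (529) and Srsf2 (514) of the speckle genes.

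Other nuclear long non-coding RNAs were scarce. Of 12 listed, 7 were measured and 4 were abundant enough to test, led by Tug1 (79.0 CPM) and Kcnq1ot1 (49.5). Of these 0 were called by edgeR or DESeq2, with at most 2 at an unadjusted edgeR p under 0.05, in ENZ-INHIB against DNC-NONE, where 1027 of all genes (10.4%) had one. Of the 13 mitochondrial genes, led by mt-Atp6 (2364) and mt-Co3 (2111), 0 passed by edgeR or DESeq2, while 6 had an unadjusted edgeR p under 0.05 in digestion against Dounce (12.9% of all genes, as above).

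Among 6036 genes of at least 20 CPM, the pattern over the 12 libraries most like that of Malat1 was that of Wnk1, a kinase of ion transport (Pearson's r = 0.93 of log2 levels), ahead of Nisch (0.88), Mrpl1 (0.86), Sipa1 (0.86) and Gpr157 (0.85). Most like Neat1 was Ier2, an immediate early gene (0.93), then Tmem258 (0.91), Denr (0.90), Ifitm10 (0.90) and the cytokine gene Osm (0.89). Ier2 averaged 177 ± 128 CPM in ENZ-NONE and 45.7 ± 23.2 in DNC-NONE (SD, n = 3), and with inhibitors 28.8 ± 0.285 after Dounce and 25.2 ± 11.8 after digestion. These likenesses share library, depth and the high ENZ-NONE replicate 6, and are given as a ranking only.

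Cells of one library spread widely in Malat1. In cells of 1000 to below 1500 UMIs the SD of the share over cells averaged 1.77 ± 0.114 percentage points over libraries, where counting alone would give 0.692. The 946 cells in the top 5% of their library by Malat1 share held it at 10.1% against 5.55% in the rest. They were shallower (median 1130 against 1353 UMIs) and lower in mitochondrial share (0.917 against 1.08%) in 12 of 12 libraries, and held Neat1 at 107 against 58.6 CPM, higher in 9 of 12. The 107 CPM (SD 79.6 over libraries) rested on 114 Neat1 UMIs. Of these, 32 came from ENZ-NONE replicate 6, at 296 CPM. In the bottom 5%, 27.5% ± 14.2 of cells were not microglia-like, against 4.76% of all kept cells.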

How the data were processed

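The 12 libraries were made with the 10x Genomics 3′ version 2 kit. The deposited matrices hold whole-number UMI counts per gene and barcode, not normalized, which the authors made with Cell Ranger 3.0.0 on mm10, and bcl2fastq and Seurat are also named in the submitters' processing notes. Counts were read as deposited. No doublet caller was run, and leaving out the 2% of cells with the most UMIs served as an alternative.

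Cells were filtered as given above, clustered (scanpy 1.11.5, leidenalg 0.10.2, 2000 variable genes, 30 principal components, 20 neighbours, resolution 1) without the members, mitochondrial, ribosomal protein and histone genes, and named from marker lists. 1 cluster was left unnamed by a rule added after its leading genes were seen. Counts were summed per library and tested with edgeR 4.0.16 (R 4.3.3; TMM, filterByExpr, default glmQLFit and glmQLFTest) over all 12 libraries and 4 group means, with adjusted p under 0.05 called. A first run had robust estimation set against the written design, the outcome of both was seen, and the default is reported with robust estimation as an alternative. DESeq2 1.42.0 was another. Levels per library were compared by exact permutation, within-library differences by exact sign flips (scipy 1.17.1), and scripts were tested on simulated counts. Each library is a separate mouse. Replicates of one group differed by 1.56 to 6.06 times the variance that sampling gives, so none was a duplicate. Annotation and sequences were taken from GRCm38.

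The members, lists and markers were chosen with earlier results of these data known. Named beside the members were the 2 most abundant genes of each list (1 of them is not reported here), list genes chosen after their values were seen (Sfpq, Srsf2), and the 5 genes most like each member. Depth per library limits Neat1: 74 to 374 UMIs.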

Additional observations from a re-analysis of the deposited data

Results flagged for a closer look

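The step in Malat1 share from barcodes of 1000 to below 1500 UMIs down to barcodes under 500 UMIs differed between digested and Dounce libraries, by a test of the difference itself. It was 6.28 ± 0.956 percentage points over the 6 digested libraries (5.06 to 7.81) and 2.28 ± 0.694 over the 6 Dounce libraries (1.09 to 3.11; SD). The 2 means differed by 3.997 points (exact permutation test, two-sided, p = 0.00216, the smallest that 6 against 6 can give, not adjusted). This comparison was made after the difference under 500 UMIs had been seen, rests on the same values and adds no independent support. The difference under 500 UMIs had an adjusted p of 0.0303, and of 0.0700 when libraries were permuted within batch (exact permutation tests). Within batch 1 the difference was 4.07 points and within batch 2 it was 3.92. The share at 1000 to below 1500 UMIs was 6.26% and 6.18% in the deposited barcodes of these groups. Median UMIs in the shallow bin, the microglial markers and Cst3 were lower in the digested libraries, and their part in the difference was not tested.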

How the results depend on the processing

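Malat1 passed the test in no contrast under any setting, and the sign of its small log2 fold changes moved with the processing in 20 of 224 repeats. In ENZ-NONE against DNC-INHIB it was -0.0305 without TMM scaling, -0.0250 with batch as a covariate and -0.0399 without the heat shock, Fos and Socs3 clusters. In DNC-NONE against DNC-INHIB it was 0.0254 over all deposited barcodes. A stricter cell filter gave 0.0596 in ENZ-INHIB against DNC-NONE, 0.0504 for digestion and 0.0092 for inhibitors, cells of 1000 to below 1500 UMIs gave 0.0375, 0.0275 and 0.0101, and the batch covariate 0.0072 for inhibitors. Leaving out 1 library moved Malat1 between -0.0159 and 0.139 (ENZ-NONE against DNC-NONE), -0.0166 and 0.0323 (against DNC-INHIB), -0.130 and 0.0251 (between the Dounce groups), -0.110 and 0.0462 (ENZ-INHIB against DNC-NONE), -0.0503 and 0.0278 (digestion) and -0.0595 and 0.0184 (inhibitors).

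For Neat1 in ENZ-NONE against DNC-NONE the log2 fold change was 0.84 without the low-count filter (adjusted p = 4.10e-08, edgeR) and 1.00 in microglia-like cells. Against DNC-INHIB it was 1.09 with robust estimation and 0.88 without the 3 clusters. Against ENZ-INHIB it was 1.11 with only the 2 groups compared (adjusted p = 0.0915), 1.11 with robust estimation, 0.75 in cells of 1000 to below 1500 UMIs (adjusted p = 0.424) and 0.90 without the 3 clusters. In ENZ-INHIB against DNC-INHIB it was 0.0062 in microglia-like cells, 0.0061 without the top 2% of UMI counts and 0.19 in cells of 1000 to below 1500 UMIs, which gave 0.0034 in ENZ-INHIB against DNC-NONE. Without the low-count filter digestion gave 0.41 (adjusted p = 0.00138, edgeR), inhibitors -0.67 (4.03e-10) and the interaction -0.86 (0.00172). Inhibitors gave -0.68 by DESeq2 and -0.95 with a stricter cell filter (adjusted p = 0.0170, edgeR). Leaving out 1 library gave 0.39 to 1.04 (ENZ-NONE against DNC-NONE), 0.64 to 1.29 (against DNC-INHIB), 0.66 to 1.31 (against ENZ-INHIB), -0.098 to 0.0326 (between the inhibited groups) and -0.78 to -0.46 (inhibitors). The filter changes how many genes are tested, and the cause of the other changes was not tested.

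Shares of cells with no Malat1 UMI changed sign at values near 0. In percentage points they were 0.000809 (ENZ-NONE against DNC-NONE, microglia-like), 0.000823 and 0.000773 (ENZ-NONE against DNC-INHIB, thinned to 500 UMIs and without the top 2%), -0.00117 (DNC-NONE against DNC-INHIB, microglia-like), -0.0609 and -0.0173 (ENZ-INHIB against DNC-NONE, thinned to 500 and 1500), -0.0300 and -0.00894 (digestion, the same) and -0.0309 and -0.00835 (inhibitors, the same). Leaving out 1 library gave -0.00121 to 0.000885 in ENZ-NONE against DNC-INHIB. Cells with a Neat1 UMI differed by -0.123 (thinned to 1500) and -0.0496 (microglia-like) in ENZ-INHIB against DNC-INHIB, with -0.144 to 0.320 when 1 library was left out, by 0.192 without thinning in ENZ-INHIB against DNC-NONE, and by -2.30 to -1.02 between inhibitors and none when 1 library was left out (lowest adjusted p = 0.0346, exact permutation).

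The mitochondrial share, with 1 library left out, differed by -0.0477 to 0.0588 points (ENZ-NONE against DNC-NONE), -0.0205 to 0.0614 (against DNC-INHIB), -0.0270 to 0.0730 (DNC-NONE against DNC-INHIB) and -0.0137 to 0.0392 (inhibitors). Within libraries the Malat1 relations to depth and mitochondrial share kept sign and call in all 33 repeats. The Neat1 relations gave 44.6 CPM by depth with 1000 to below 1500 UMIs as the deeper bin, 8.43 and 2.40 by mitochondrial share in cells of 1000 to below 1500 UMIs and in microglia-like cells, where the call was lost both times, and 16.2 by Malat1 share in microglia-like cells, where it was gained. With 1 library left out the relation to Malat1 share over all kept cells, reported as 7.19, gave 4.50 to 10.4, and it passed at 10.4, without DNC-INHIB replicate 5. Malat1 under 500 UMIs kept a difference of 3.45 to 4.26 points between digested and Dounce libraries over 4 other settings and 3.797 to 4.31 with 1 library left out.

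Replicate numbers were shared by DNC-INHIB and ENZ-NONE and by DNC-NONE and ENZ-INHIB. Deviations from the group mean were correlated over genes. In DNC-INHIB and ENZ-NONE same-numbered libraries gave 0.108, -0.0171 and 0.155 for replicates 4, 5 and 6, and different numbers -0.144 to 0.0505. Replicates 4 and 6 each shared a batch, and replicate 5 did not. In DNC-NONE and ENZ-INHIB the same numbers gave -0.0829, -0.0574 and 0.0149 for replicates 1, 2 and 3, and different numbers -0.0370 to 0.0878. With the replicate block, Neat1 gave 1.04 (adjusted p = 0.00209, edgeR) and -0.27 (0.633), and Malat1 0.01 and -0.04, while the genes called went from 86 to 117 and from 10 to 72.

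The number of genes called by edgeR moved by over 1.5 times in each contrast under some setting. Over the alternatives other than leaving out a library, against 64, 86, 42, 0, 15 and 10 as reported for the 6 pairs in the order ENZ-NONE against DNC-NONE, against DNC-INHIB and against ENZ-INHIB, the Dounce groups, the inhibited groups and DNC-NONE beside ENZ-INHIB, it ranged over 17 to 240, 30 to 280, 15 to 165, 0 to 98, 1 to 137 and 3 to 269. For digestion, inhibitors and the interaction, reported as 155, 22 and 17, it ranged over 62 to 424, 7 to 177 and 3 to 74. Every highest value came without the low-count filter.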

Other observations

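Over the 12 libraries, 3 relations were computed after the data were seen. Malat1 share against the median of UMIs per kept cell gave Pearson's r = -0.405 (permutation p = 0.190) and Spearman's rho = -0.308 (p = 0.332), and r = 0.0441 without the 2 libraries farthest in depth. Within batches r was 0.420 and -0.214. Malat1 share against mitochondrial share gave r = 0.482 (permutation p = 0.113) and rho = 0.336 (p = 0.286), r = 0.429 without the 2 farthest libraries, and 0.440 and 0.277 within batches. Neat1 against mitochondrial share gave r = -0.131 (permutation p = 0.693) and rho = -0.0490 (p = 0.887), r = -0.164 without the 2 farthest, and -0.318 and -0.248 within batches. Adjusted p over the 3 was 0.285, 0.285 and 0.693. The relation of Malat1 to mitochondrial share was thus positive in sign over libraries and negative over the cells of each library (Spearman's rho from -0.259 to -0.0956 in 12 of 12, over cells), and the first did not pass its test.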
